A study of Homo sapiens with 8 samples.

Results

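The DNA damage response and repair genes described here are 50 genes chosen by their symbols out of 75553 gene names in the deposited count tables. All 50 are among the 37526 names that all 8 tables list, and 49 of them had at least 1 count. RNA-seq was done on NB4 cells, an acute promyelocytic leukaemia (APL) line that carries the PML/RARα fusion. The cells were stably transduced either with a control vector (shNC) or with a short hairpin RNA against the histone demethylase KDM3B (shKDM3B), and each was measured without and with all-trans retinoic acid (ATRA), which drives NB4 cells towards granulocytes. This gave 4 groups of 2 libraries, named shNC, shKDM3B, shNC+ATRA and shKDM3B+ATRA. The labels give 1 µM ATRA for 24 or 48 hours without saying which library had which time, and they call the control an empty vector, whereas the study's methods describe a scrambled hairpin and give the ATRA concentration in mM rather than µM. Whether each transduced line was a pool or a single clone is not stated. Nothing states that the replicates were separate cultures, so p-values measure only the spread between these libraries, which may be technical.

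Cells sense broken or stalled DNA through the kinases ATM, ATR and DNA-PK, which mark the lesion and halt the cell cycle through CHEK1 and CHEK2. Double-strand breaks are then joined end to end or copied from the sister chromatid by homologous recombination, crosslinks are unhooked by the Fanconi anaemia proteins, and single damaged or mispaired bases are cut out by base excision, nucleotide excision or mismatch repair. Many of these genes are transcribed most in dividing cells, and APL cells that ATRA turns towards granulocytes leave the cell cycle.

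KDM3B itself was measured first, as a check of the labels. Its level as counts scaled for library size (CPM) was 186 and 189 in shNC, 75.1 and 89.1 in shKDM3B, 194 and 120.3 in shNC+ATRA, and 52.8 and 57.1 in shKDM3B+ATRA. Both knockdown groups lay below both of their controls, with a log2 fold change of -1.21 without ATRA (edgeR adjusted p = 0.068) and -1.53 with ATRA (edgeR adjusted p = 0.50).

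The libraries held 9708739 to 33017787 read pairs assigned to genes. In 5 libraries 8.49% to 9.62% of read pairs with a unique alignment fell outside genes, whereas in shNC+ATRA replicate 2 and both shKDM3B+ATRA libraries the share was 50.02% to 51.4%. That division runs through the shNC+ATRA group and coincides with ATRA in the shKDM3B cells, so in the latter it cannot be told apart from the treatment. The 3 libraries with the high share also held the fewest read pairs on genes, 9708739 to 11623305, against 16882512 to 33017787 in the other 5. The summed level of 11 promyelocyte markers was 4824 and 5984 CPM in shNC, 8769 and 10501 in shKDM3B, 1838 and 1438 in shNC+ATRA, and 3840 and 2958 in shKDM3B+ATRA, so that knockdown lay above control in both states. Most of that sum without ATRA was MPO (4251 to 9845 CPM), and the list did not move as one with ATRA, which called 2 of its genes higher and 3 lower in each cell type. Knockdown called MPO higher in both states and no other gene of the list. Among its granule genes, ELANE, PRTN3 and AZU1 had at most 1.48 CPM in every library. CTSG, another of them, had 104 and 116 CPM in shNC and 146 and 131 in shKDM3B. With ATRA it had 4.05 and 2.29 CPM in shNC cells and 2.01 and 1.70 in shKDM3B cells. The summed level of 10 markers of ATRA differentiation was 628 and 562 CPM in shNC, 397 and 428 in shKDM3B, 11384 and 10927 in shNC+ATRA, and 4947 and 5925 in shKDM3B+ATRA. The differentiation markers were thus lower in knockdown than in control in both states, with 6 of the 9 tested called lower without ATRA and 8 of 10 with it, and the part of both marker lists in the differences between knockdown and control given here was not tested. Summed levels of T cell, erythroid and fibroblast markers were at most 2.90 CPM in every library, those of 4 B cell markers 6.22 to 25.6 CPM and those of 5 epithelial markers 17.6 to 25.3 CPM. In bulk RNA, fewer cells of a type and less RNA per cell cannot be told apart.

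Members were called at an unadjusted P below 0.05 together with a change of 1.5-fold or more, the study's thresholds. Of the 50 members, 48 passed the low-count filter of every comparison. MGMT, which removes alkyl groups from guanine, had 0 counts in all 8 libraries, and ATRIP, the partner of ATR, had at most 9. ATRIP shares 26.7% of its exon length with another gene on the same strand, so some of its reads may have been left out.

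**Figure D1:**
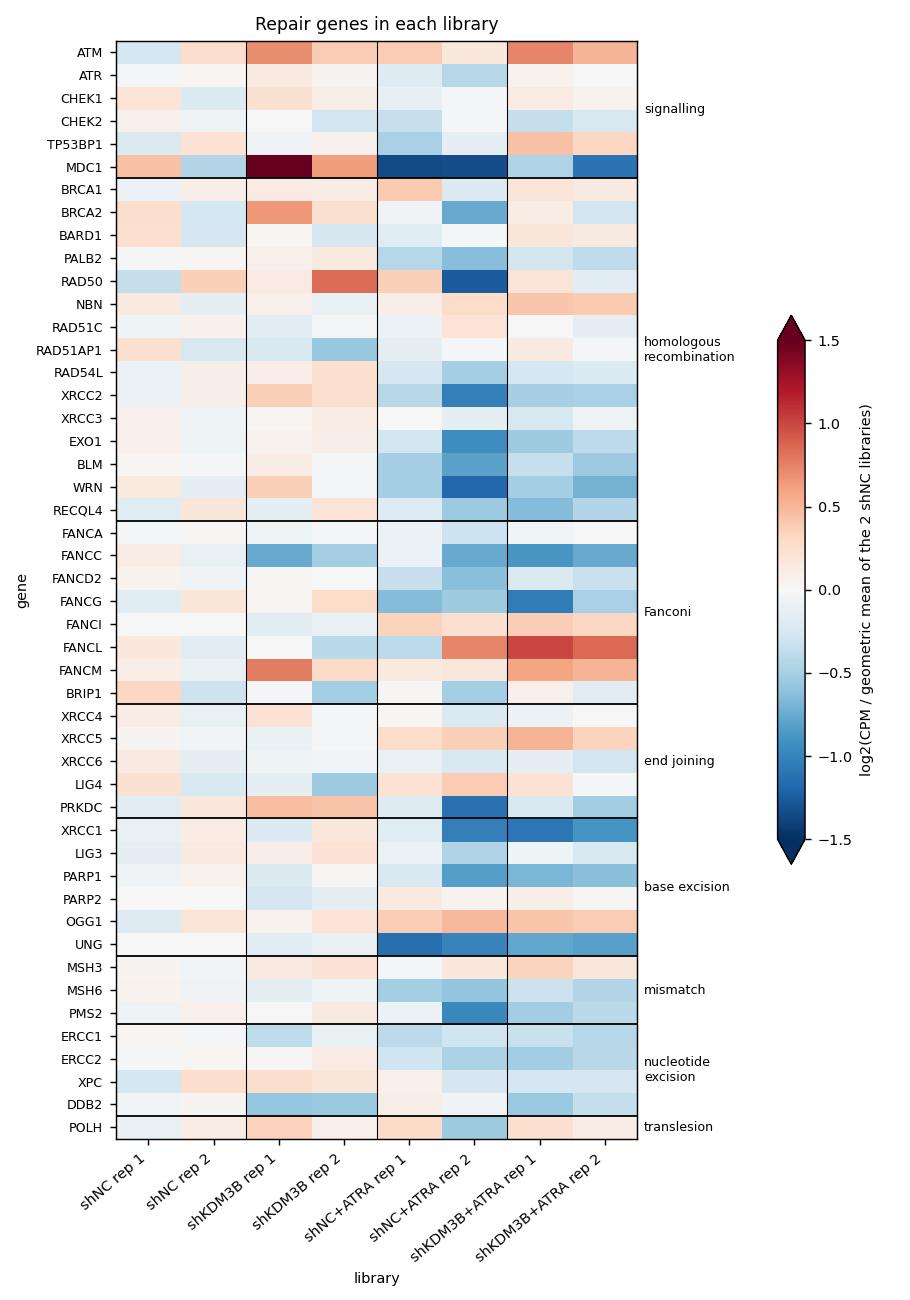
Level of the 48 tested repair genes (rows, grouped by role) in each of the 8 libraries (columns), as the log2 ratio of CPM to the geometric mean of the 2 shNC libraries, with colours saturating at 1.5 in either direction. UNG, XRCC2, BLM and WRN are blue in all 4 ATRA libraries, and the shNC+ATRA replicate 2 column holds more dark blue than replicate 1.

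The shares of members called with KDM3B knockdown were low, as were those of all genes. Without ATRA, 1 of 48 members was called higher (2.08%, against 3.48% of the 13855 genes tested) and 1 lower (2.08%, against 3.53%), and 0 of these had an edgeR adjusted p under 0.05 (against 0% higher and 0.0217% lower of all genes). With ATRA, 1 member was called higher (2.08%, against 2.42% of 14281 genes) and 0 lower (against 4.37%), again with 0 at an edgeR adjusted p under 0.05 (against 0% of all genes). DESeq2 with adjusted p-values called 0 members without ATRA, against 2.13% of all genes, and 1 with it, against 2.83%. An unadjusted P under 0.05, whatever the fold change, was found for 6 of 48 members without ATRA, against 10.2% of all genes, and for 1 with it, against 9.68%. The median log2 fold change of the 48 members was 0.04 without ATRA, beside 0.00 for all genes tested, and 0.12 with ATRA, beside 0.03. The median with ATRA turned to -0.03 (all genes 0.06) without shNC+ATRA replicate 2, 1 of the 3 libraries with about 50% of read pairs outside genes. CPM did not overlap between shNC and shKDM3B for 10 members that were higher (20.8%, against 22.1% of all genes) and 8 that were lower (16.7%, against 17.6%). With ATRA the corresponding numbers were 16 higher (33.3%, against 25.2%) and 3 lower (6.25%, against 25%).

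Few members were called with ATRA. In shNC cells the fitted change was negative for 35 of 48 members, beside 6058 of all 12429 genes. In shKDM3B cells it was negative for 29 of 48, beside 6063 of 12756. In shNC cells 5 members were called lower (10.4%, against 10.8% of 12429 genes) and 0 higher (against 15%), and 1 of the 5, UNG, had an edgeR adjusted p under 0.05 (against 7.84% of all genes higher and 5.06% lower). In shKDM3B cells 7 were called lower (14.6%, against 18.3% of 12756 genes) and 1 higher (2.08%, against 24%), and all 8 had an edgeR adjusted p under 0.05, as did 17.3% and 23% of all genes in those directions. The median log2 fold change of the members was -0.21 in shNC cells, beside 0.02 for all genes, and -0.10 in shKDM3B cells, beside 0.04. Leaving out 1 library at a time moved the shNC median between -0.31 and -0.10, beside -0.01 to 0.03 for all genes. In a fit of all 8 libraries with a term for the division by read pairs outside genes, the shKDM3B median turned to 0.05, beside -0.01 for all genes, and 3 members were called higher and 2 lower, against 1 and 7 (median -0.15) in that fit without the term. CPM did not overlap for 20 members that were lower with ATRA in shNC cells (41.7%, against 31.3% of all genes) and 5 that were higher (10.4%, against 26.5%). In shKDM3B cells these were 23 lower (47.9%, against 38.9%) and 11 higher (22.9%, against 37.7%). The shares of members called lower were thus near those of all genes in both ATRA comparisons.

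**Figure D2:**
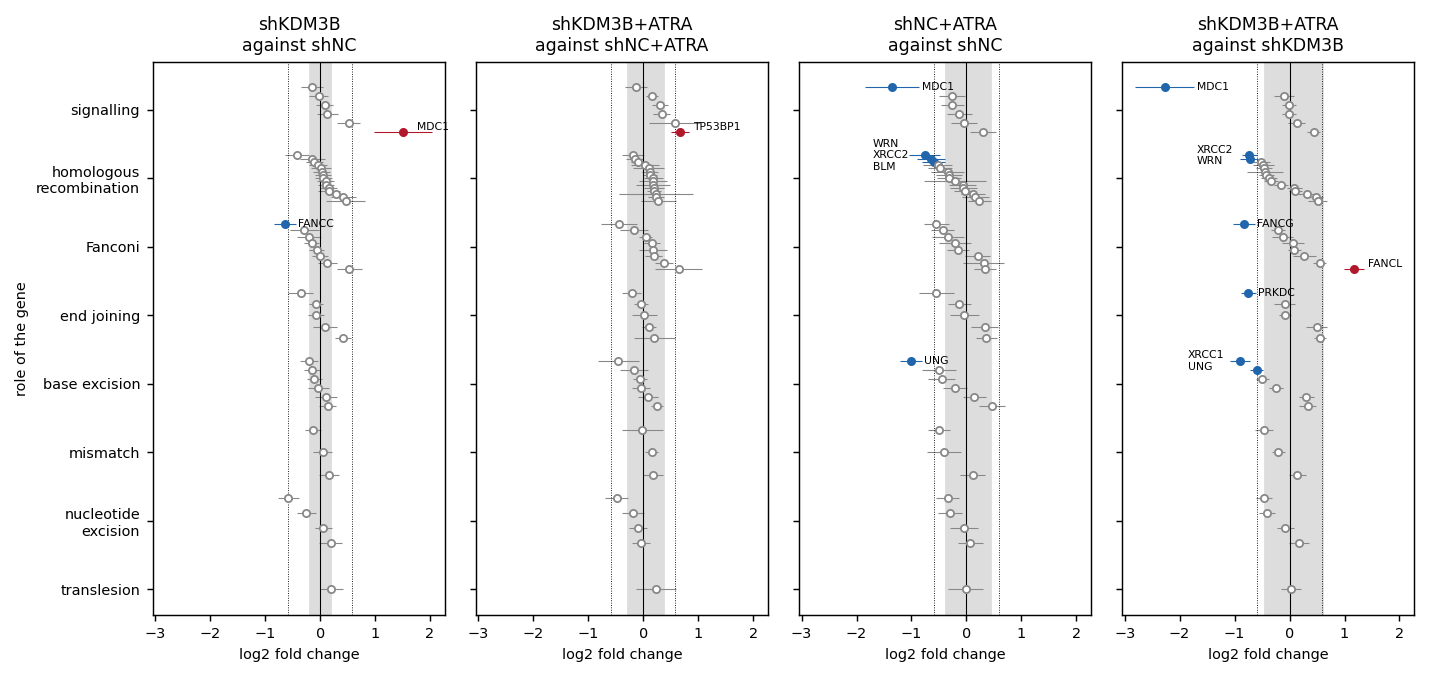
Log2 fold change (horizontal axis) of the 48 tested members in the 4 comparisons, by role, with bars of 1 standard error. Filled points are members called higher (red) or lower (blue), dotted lines mark a 1.5-fold change, and the grey band spans the middle of all genes tested, from the lower to the upper quartile. UNG, MDC1, WRN and XRCC2 are filled on the lower side of both ATRA comparisons.

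UNG gave the ATRA difference with the smallest P-value among the members in shNC cells. UNG encodes uracil-DNA glycosylase, which removes uracil from DNA as the first step of base excision repair, and lies on chromosome 12 (hg38, chr12:109097597-109126725, plus strand), with no exon overlapped by another gene. Its level was 189 and 189 CPM in shNC, 169 and 175 in shKDM3B, 86.5 and 94.4 in shNC+ATRA, and 109.6 and 108 in shKDM3B+ATRA. The 4 ATRA libraries lay below the 4 untreated ones, on both sides of the division by read pairs outside genes. The log2 fold change with ATRA was -1.01 ± 0.20 (SE) in shNC cells (edgeR adjusted p = 0.017) and -0.60 ± 0.12 in shKDM3B cells (edgeR adjusted p = 0.0024). The call held in both cell types under every alternative and with each library left out, between -1.10 and -0.94 in shNC and between -0.63 and -0.60 in shKDM3B when a library was left out. Knockdown was lower than control by -0.15 ± 0.14 without ATRA and higher by 0.25 ± 0.11 with it, neither of them called.

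The sequence before the start of UNG is shown, with that of BLM, the recombination helicase that also fell with ATRA in shNC cells, because these are called members whose RefSeq start coincides with their GENCODE start. Both are the 250 bases before the transcription start in RefSeq (GRCh38.p14), plus strand, chr12:109097347-109097596 for UNG and chr15:90717096-90717345 for BLM. Capitals mark the core of an E2F site (written TTGGCGC, with the variants of it that were also searched being TTCCCGC, the middle form spelled TTCGCGC, and the last form spelled TTGCCGC) and the CCAAT box (the letters CCAAT), each on either strand.
UNG: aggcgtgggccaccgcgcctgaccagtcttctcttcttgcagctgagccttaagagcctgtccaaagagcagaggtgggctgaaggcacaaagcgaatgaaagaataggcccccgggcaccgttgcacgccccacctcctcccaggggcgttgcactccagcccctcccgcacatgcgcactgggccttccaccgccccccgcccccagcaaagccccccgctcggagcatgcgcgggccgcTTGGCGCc
BLM: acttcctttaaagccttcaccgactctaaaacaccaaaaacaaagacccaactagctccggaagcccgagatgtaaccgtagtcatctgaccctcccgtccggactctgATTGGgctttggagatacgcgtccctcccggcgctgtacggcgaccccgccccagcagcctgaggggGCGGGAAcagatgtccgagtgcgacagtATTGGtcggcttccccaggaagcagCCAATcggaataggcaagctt

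The UNG window holds 1 E2F core, whose first base lies 8 bases before the start, and 0 CCAAT boxes. The BLM window holds 1 E2F core, 74 bases before the start, and 3 CCAAT boxes, at 141, 46 and 21 bases. Of the 50 members, 44 were found in the RefSeq promoter table, and 17 of them (38.6%) held an E2F core, against 10.9% of all 35116 promoters of the same length. Those 35116 are every promoter listed, not limited to protein-coding genes or to genes expressed in these cells, so they are not a matched set. The CCAAT box was in 21 (47.7%, against 32.0%) and the Sp1 box (GGGCGG) in 34 (77.3%, against 42.6%), while the cell cycle homology region (TTTGAA, or alternatively the letters TTTAAA) was in 7 (15.9%, against 21.9%). The first 2 of these patterns can overlap, since the reversed CCAAT box ends as the E2F core begins. A match of letters is not evidence of binding, and no factor was measured.

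Among the other base excision and single-strand break genes, PARP1, the nick sensor that builds poly(ADP-ribose) chains, had 628 and 671 CPM in shNC, 564 and 656 in shKDM3B, 554 and 367 in shNC+ATRA, and 403 and 421 in shKDM3B+ATRA. Its ATRA libraries were the lower ones in both cell types, with log2 fold changes of -0.45 ± 0.24 in shNC and -0.50 ± 0.12 in shKDM3B (edgeR adjusted p = 0.0067), both short of 1.5-fold. XRCC1, the scaffold that holds the single-strand break machinery together (chr19:43543311-43580473, minus strand), had 28.8 and 33.8 CPM in shNC, 27.0 and 35.0 in shKDM3B, 27.5 and 15.4 in shNC+ATRA, and 14.7 and 16.9 in shKDM3B+ATRA. Its 3 low libraries are the 3 with about 50% of read pairs outside genes. XRCC1 was called lower with ATRA in shKDM3B cells (-0.90 ± 0.18, edgeR adjusted p = 0.0030), but the value was -0.11 in a fit of all 8 libraries with a term for that division. That term rests on the difference between the 2 shNC+ATRA libraries alone. LIG3, the ligase that XRCC1 brings to the nick, PARP2, a second poly(ADP-ribose) polymerase, and OGG1, which removes oxidised guanine, were not called in any of the 4 comparisons.

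Homologous recombination was represented by 15 genes, of which 0 were called by knockdown in either state, where 2.42% to 4.37% of all genes were called in each direction. With ATRA 3 of the 15 were called lower in shNC cells, where 10.8% of all genes were, and 2 in shKDM3B cells, where 18.3% were. Their median log2 fold change with ATRA was -0.32 in shNC and -0.37 in shKDM3B. BLM (chr15:90717346-90816166, plus strand) had 116 and 111 CPM in shNC, 122 and 111 in shKDM3B, 80.6 and 65.2 in shNC+ATRA, and 89.1 and 77.7 in shKDM3B+ATRA. No ATRA library reached the level of any untreated one. Its log2 fold change was -0.59 ± 0.21 in shNC (edgeR adjusted p = 0.12) and -0.42 ± 0.14 in shKDM3B (edgeR adjusted p = 0.028), the latter short of 1.5-fold. In shNC it was -0.46 without shNC+ATRA replicate 2 and -0.48 with the term for read pairs outside genes, neither of them called, and the call ended in 7 alternatives in all.

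WRN, a second RecQ helicase, had 58.4 and 48.0 CPM in shNC, 67.7 and 52.3 in shKDM3B, 37.6 and 23.3 in shNC+ATRA, and 37.3 and 32.5 in shKDM3B+ATRA. XRCC2, which helps homologous strands pair (chr7:152644776-152676193, minus strand), had 78.3 and 88.1, 107 and 98.2, 62.2 and 40.9, and 58.7 and 59.4 CPM in the same order. For both genes the 4 ATRA libraries were the lowest. WRN changed by -0.76 ± 0.28 in shNC (edgeR adjusted p = 0.14) and -0.72 ± 0.18 in shKDM3B (edgeR adjusted p = 0.0083), and XRCC2 by -0.64 ± 0.26 (edgeR adjusted p = 0.16) and -0.73 ± 0.13 (edgeR adjusted p = 0.0016). Leaving out 1 library moved the shKDM3B value of WRN between -0.92 and -0.53, the latter short of 1.5-fold, and that of XRCC2 between -0.82 and -0.68. With the term for read pairs outside genes, the shKDM3B values were -0.08 for WRN and -0.17 for XRCC2. In shNC neither was called when shNC+ATRA replicate 2 was left out (-0.47 and -0.39), nor without shNC replicate 1 (-0.61 and -0.72) or shNC replicate 2 (-0.90 and -0.57). The shNC call ended in 6 of 15 alternatives for WRN and in 7 for XRCC2, among them the replicate block for XRCC2 (-0.67).

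The breast cancer genes of the same pathway showed no call. BRCA1 had 108 and 121 CPM in shNC, 125 and 123 in shKDM3B, 149.6 and 98.1 in shNC+ATRA, and 130.1 and 125 in shKDM3B+ATRA. The 2 shNC+ATRA libraries lay on either side of all the others. BRCA2, a mediator of strand exchange, had 121 and 84.0, 158 and 119, 97.0 and 59.6, and 109 and 82.6 CPM, with group means of 103, 139, 78.3 and 95.7 CPM and SDs of 26.4, 27.5, 26.4 and 18.4 CPM (n = 2 each). Its difference with the smallest P-value was -0.48 ± 0.18 with ATRA in shKDM3B (edgeR adjusted p = 0.057). BARD1, the partner of BRCA1, PALB2, which joins BRCA1 to BRCA2, NBN and RAD50 of the break-sensing complex, RAD51C and XRCC3, which act beside XRCC2, RAD51AP1 and RAD54L, which assist strand invasion, EXO1, which resects ends, and the helicase RECQL4 were also without a call. RAD50 had 18 to 221 counts per library and shares 76.9% of its exon length with another gene on the same strand, and XRCC3 has 76.7% of its exon length under exons on the opposite strand, so reads of these genes may have been left out or misplaced.

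Damage signalling gave the largest changes on the log2 scale, in a gene with few counts. MDC1, the adaptor that binds phosphorylated H2AX beside a break (chr6:30699807-30717447, minus strand), had 4.38 and 2.37 CPM in shNC, 14.3 and 4.98 in shKDM3B, 1.27 and 1.28 in shNC+ATRA, and 2.33 and 1.499 in shKDM3B+ATRA. These stand for 88 and 56, 283 and 157, 21 and 14, and 22 and 15 counts. Knockdown was above control in both states and ATRA below its absence in both cell types, without overlap. The call with knockdown was 1.51 ± 0.52 (edgeR adjusted p = 0.35) and fell to 0.51, no longer called, without shKDM3B replicate 1. With ATRA the gene changed by -1.35 ± 0.49 in shNC (edgeR adjusted p = 0.13) and by -2.27 ± 0.53 in shKDM3B (edgeR adjusted p = 0.0062). The former was -0.84, not called, without shNC replicate 1, and its call ended in 6 of 15 alternatives, among them DESeq2 (-1.36), all 8 libraries in one fit (-1.38) and the term for read pairs outside genes (-1.38), where the value hardly moved. The latter was -1.33 when shKDM3B replicate 1 was left out. The knockdown difference with ATRA, 0.57 ± 0.46, was not called.

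TP53BP1, which shields broken ends from resection (chr15:43403061-43510728, minus strand, 28.8% of its exon length under exons on the opposite strand), had 115 and 154 CPM in shNC, 128 and 139 in shKDM3B, 95.4 and 122 in shNC+ATRA, and 181 and 166 in shKDM3B+ATRA. The shKDM3B+ATRA libraries were the 2 highest of the 8. It was the only member called between the ATRA-treated groups, at 0.66 ± 0.17 (edgeR adjusted p = 0.50), and the knockdown difference without ATRA was -0.02 ± 0.17. The value with ATRA was not called without shNC+ATRA replicate 1 (0.51), without shKDM3B+ATRA replicate 1 (0.61) or replicate 2 (0.72), or with the term for read pairs outside genes (0.50), while DESeq2 gave it an adjusted p of 0.030. The difference between the ATRA responses was 0.68 ± 0.26 (edgeR quasi-likelihood interaction test over 8 libraries, unadjusted P = 0.033, Benjamini-Hochberg adjusted p = 0.99996). It was the only one of 48 members with an unadjusted P under 0.05 in this test (4.49% of 13528 genes had one, 1.42% higher and 3.07% lower), and 0 of all genes passed the adjusted threshold.

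The kinases ATM, ATR, CHEK1 and CHEK2 were not called in any comparison. ATM had 64.8 and 93.0 CPM in shNC, 126 and 101 in shKDM3B, 101 and 86.8 in shNC+ATRA, and 129 and 110.2 in shKDM3B+ATRA. Both knockdown libraries exceeded both controls in each state, by 0.52 ± 0.21 without ATRA (edgeR adjusted p = 0.45) and 0.33 ± 0.16 with it (edgeR adjusted p = 0.56), neither reaching 1.5-fold. ATR had 67.1 and 69.6, 75.3 and 70.5, 59.9 and 50.8, and 70.8 and 68.1 CPM. CHEK1, the kinase that ATR activates, had 94.0 and 70.6, 95.2 and 86.8, 74.8 and 79.9, and 88.4 and 84.6 CPM. CHEK2, which ATM activates, had 35.0 and 31.8, 33.5 and 27.3, 26.2 and 32.7, and 26.0 and 28.2 CPM. Differences between groups in ATR, CHEK1 and CHEK2 were at most 0.31 in size on the log2 scale.

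Of the 8 Fanconi anaemia genes, FANCC was the only one called between knockdown and control. FANCC belongs to the core complex that ubiquitinates FANCD2 and FANCI at a crosslink (chr9:95099054-95426796, minus strand). Its level was 25.2 and 21.6 CPM in shNC, 13.8 and 16.4 in shKDM3B, 21.9 and 13.8 in shNC+ATRA, and 12.7 and 13.8 in shKDM3B+ATRA. The knockdown libraries lay below their controls in both states, narrowly so with ATRA. The log2 fold change was -0.65 ± 0.20 without ATRA (edgeR adjusted p = 0.30) and -0.44 ± 0.33 with it, and the former was not called without shNC replicate 1 (-0.52) or without shKDM3B replicate 1 (-0.56).

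FANCL, the ubiquitin ligase of the core complex (chr2:58159243-58241410, minus strand), had 38.1 and 30.5 CPM in shNC, 34.1 and 25.8 in shKDM3B, 25.9 and 56.4 in shNC+ATRA, and 68.0 and 61.3 in shKDM3B+ATRA. It was high in the 3 libraries with about 50% of read pairs outside genes and low in the 5 others, among them shNC+ATRA replicate 1. It was the only member called higher with ATRA, in shKDM3B cells (1.17 ± 0.18, edgeR adjusted p = 0.00055), and with the term for read pairs outside genes that value was 0.01.

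FANCG, another core protein (chr9:35073835-35080004, minus strand), had 58.2 and 74.5 CPM in shNC, 67.1 and 79.7 in shKDM3B, 41.8 and 45.6 in shNC+ATRA, and 31.7 and 47.0 in shKDM3B+ATRA. All 4 ATRA libraries lay below the untreated ones, whichever their share of read pairs outside genes. The change was -0.55 ± 0.23 in shNC (edgeR adjusted p = 0.17), just short of 1.5-fold, and -0.83 ± 0.19 in shKDM3B (edgeR adjusted p = 0.0060), where it was -1.003 with the term for read pairs outside genes and -0.57, not called, without shKDM3B+ATRA replicate 1. FANCA, FANCD2, FANCI, FANCM, a DNA translocase, and BRIP1, the helicase that partners BRCA1, were not called. FANCI had 238 to 268 CPM in the untreated libraries and 314 to 344 CPM in the ATRA libraries, with log2 fold changes of 0.34 ± 0.19 in shNC and 0.55 ± 0.11 in shKDM3B (edgeR adjusted p = 0.0034).

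Of the end joining genes, XRCC6 and XRCC5 had the highest level per length of exon of all members. These genes of the Ku70 and Ku80 proteins that cap a broken end had 198 and 164 and 112 and 105 CPM per kilobase in the shNC libraries, against 35.9 and 35.8 for UNG, 34.1 and 36.4 for PARP1 and 25.4 and 31.9 for PRKDC. Length here is that of all annotated exons of a gene, 3244 bases for XRCC6, 5463 for XRCC5, 18399 for PARP1 and 29073 for PRKDC. Before division by length, PARP1 had 628 and 671 CPM in shNC and XRCC5 611 and 576, so the order of these genes depends on the annotated lengths. PRKDC, the catalytic subunit of DNA-PK that Ku recruits, had 738 and 927 CPM in shNC, 1132 and 1108 in shKDM3B, 720.5 and 382 in shNC+ATRA, and 703 and 574 in shKDM3B+ATRA. Without ATRA the knockdown libraries were above the controls (0.42 ± 0.15, edgeR adjusted p = 0.39, short of 1.5-fold), and with ATRA they lay within the range of shNC+ATRA. PRKDC was called lower with ATRA in shKDM3B (-0.75 ± 0.13, edgeR adjusted p = 0.0011). In shNC the value was -0.55 ± 0.31 (edgeR adjusted p = 0.31), for which shNC+ATRA replicate 1 was close to shNC and replicate 2 far below it. With the term for read pairs outside genes the shKDM3B value turned to 0.12. XRCC5, XRCC6, XRCC4 and LIG4, the last a ligase held by XRCC4, were not called. XRCC5 had 555 to 611 CPM without ATRA and 716 to 846 CPM with it (0.36 ± 0.19 in shNC, and 0.55 ± 0.12 in shKDM3B, edgeR adjusted p = 0.0035).

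Mismatch repair (MSH3 and MSH6, which recognise mispairs, and PMS2, which nicks the strand) and nucleotide excision repair (ERCC1, a subunit of the incision nuclease, ERCC2, a helicase of TFIIH, and the damage sensors XPC and DDB2) gave no call in any comparison, nor did POLH, the polymerase that copies past ultraviolet lesions. MSH6 had 226 to 261 CPM without ATRA and 167 to 200.3 CPM with it, a change of -0.50 ± 0.20 in shNC (edgeR adjusted p = 0.15) and -0.20 ± 0.12 in shKDM3B. PMS2 has close pseudogene copies, so its counts are uncertain. DDB2, also a known p53 target, had 21.1 and 22.3 CPM in shNC, 14.6 and 14.8 in shKDM3B, 23.1 and 20.8 in shNC+ATRA, and 14.7 and 16.9 in shKDM3B+ATRA. Both knockdown groups lay below both controls, and the differences of -0.58 ± 0.19 (edgeR adjusted p = 0.33) and -0.49 ± 0.22 (edgeR adjusted p = 0.55) fell short of 1.5-fold. DDB2 is described in this detail because of its values, having been chosen after they were seen, as were FANCI, MSH6 and XRCC5.

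The 2 shNC+ATRA libraries did not give the same picture of the members. Relative to the mean of shNC, the median member was at -0.13 (log2, with 0.1 CPM added) in replicate 1 and at -0.37 in replicate 2, beside -0.04 and -0.06 for all 12429 genes. Between the replicates 13 of 48 members (27.1%) differed by at least 1.5-fold, as did 28.9% of all genes, and 12 of the 13 were lower in replicate 2, beside 1913 genes lower and 1680 higher of all 12429. These were BRCA1, BRCA2, EXO1, FANCC, PARP1, PMS2, POLH, PRKDC, RAD50, WRN, XRCC1 and XRCC2, while FANCL was higher. With replicate 1 left out, 13 members (27.1%, against 17.7% of all genes) were called lower with ATRA in shNC cells, and with replicate 2 left out, 3 were (6.25%, against 11.8%). The part of the share of read pairs outside genes in this difference was not tested, and the labels' 24 or 48 hours cannot be assigned to either library.

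**Figure D3:**
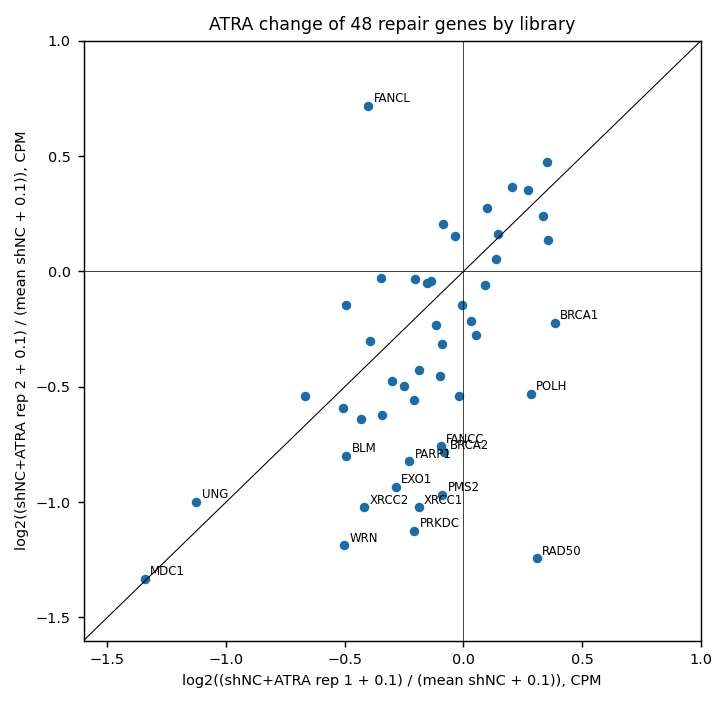
Log2 ratio of each shNC+ATRA library to the mean of shNC (0.1 CPM added) for 48 members, replicate 1 on the horizontal and replicate 2 on the vertical axis, with the line of equality. Named points are UNG, MDC1 and BLM and the 13 members that differ by at least 1.5-fold between the replicates. UNG and MDC1 lie near the line at about 1 or more below 0, whereas PRKDC, XRCC1 and RAD50 lie well below it.

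Other genes of the same pathways are given by lists made from their function. With ATRA, 7 of the 82 measured genes of 8 such lists were called higher and 3 lower in shNC, and 9 higher and 8 lower in shKDM3B, against 15% and 10.8% of all genes in shNC and 24% and 18.3% in shKDM3B. Among them 16 other homologous recombination genes had a median log2 fold change of 0.16 with ATRA in shNC, against -0.32 for the 15 members of that pathway. Knockdown called 0 of the 82 genes without ATRA, against 3.48% of all genes higher and 3.53% lower. With ATRA it called 0 of 81 higher, against 2.42%, and 3 lower, against 4.37%, a share near that of all genes. The 3 were H2AX, the histone that ATM marks (-0.71 ± 0.17), PARP3, a member of the PARP family (-0.85), and MAD2L2, a subunit of polymerase zeta (-0.74), each with an edgeR adjusted p of 0.50. In the base excision list ATRA called 2 of 16 lower and 4 higher in each cell type. NTHL1, which removes oxidised pyrimidines, had 30.8 and 40.01 CPM in shNC, 32.9 and 31.5 in shKDM3B, 15.9 and 13.3 in shNC+ATRA, and 9.44 and 11.4 in shKDM3B+ATRA. Its levels with ATRA were below all those without it, by -1.22 ± 0.25 in shNC (edgeR adjusted p = 0.019) and -1.56 ± 0.19 in shKDM3B (edgeR adjusted p = 0.00011). NEIL1, another base excision glycosylase, had at most 1.94 CPM in the untreated libraries and 1.39 in shNC+ATRA replicate 1, but 42.9 in shNC+ATRA replicate 2 and 30.9 and 32.5 in shKDM3B+ATRA. It was thus high only in the 3 libraries with about 50% of read pairs outside genes.

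Genes of S phase, mitosis and p53 targets are given for comparison, to be read against the shares of all genes called higher and lower, which were 15% and 10.8% with ATRA in shNC, 24% and 18.3% with ATRA in shKDM3B, 3.48% and 3.53% with knockdown, and 2.42% and 4.37% between the ATRA-treated groups. Of 20 S phase genes, ATRA called 2 lower in each cell type (MCM4 and E2F1 in shNC, MCM4 and GINS2 in shKDM3B) and 0 higher, with median log2 fold changes of -0.29 in shNC and -0.39 in shKDM3B. The 15 mitosis genes had medians of 0.09 and 0.21, with 0 and 1 called, the latter CDK1, which was higher. Neither list had a gene called by knockdown in either state. Without and with ATRA the knockdown medians were -0.15 and -0.15 for S phase genes and -0.16 and -0.06 for mitosis genes. Those of all genes were 0.00 and 0.03. Of 15 p53 targets tested in shNC, ATRA called 3 higher, CDKN1A, GADD45A and BTG2, and 1, AEN, lower. Of 16 tested in shKDM3B, ATRA called 4 higher, CDKN1A, GADD45A, BTG2 and TP53I3, and 2 lower, AEN and BBC3. Knockdown called 1 of 15 higher without ATRA, TNFRSF10B (0.62), and between the ATRA-treated groups 4 of 15 lower, CDKN1A, BBC3, BAX and GADD45A. The differentiation markers were also lower in the latter comparison, and their part in it was not tested. The genes of these 3 lists are named because they were called, after their values were seen. CDKN1A, the cell cycle inhibitor p21, had 0.55 and 0.63 CPM in shNC, 0.35 and 0.67 in shKDM3B, 6.83 and 7.31 in shNC+ATRA, and 0.95 and 1.40 in shKDM3B+ATRA. It rose by 3.61 ± 0.42 with ATRA in shNC (edgeR adjusted p = 0.0021), and the ATRA-treated knockdown was below the ATRA-treated control by -2.59 ± 0.38 (edgeR adjusted p = 0.50). The p53 list was summed at 376 to 428 CPM in every library.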

How the data were processed

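Total RNA of NB4 cells was sequenced as paired reads after a library preparation that does not mark strand, as far as the kit named in the labels tells. According to the study's methods and the submitters' processing notes, the authors used HISAT2 for alignment to hg38, HTSeq for gene counts and DESeq2 for comparisons. Their deposited counts are whole numbers of read pairs per gene, 1 table per library, without normalization. Gene names differ between untreated tables (56470 each) and treated tables (56609 each), so comparisons across ATRA used the 37526 names listed in all 8. Whether both kinds of table were counted on the same annotation is not stated. Any difference in how a gene of the same name was defined coincides with ATRA and cannot be told apart from it. HTSeq's summary lines were kept out of library sizes and tests. They include read pairs outside genes (8.49% to 51.4% of uniquely aligned pairs) and ambiguous pairs (2.39% to 4.31%).

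Each pair of groups, taken from the sample titles, was fitted separately (edgeR 4.0.16, R 4.3.3, with filterByExpr, TMM scaling, quasi-likelihood F test), and p-values were adjusted over all genes by Benjamini-Hochberg. Responses to ATRA were compared as an interaction over all 8 libraries. CPM were computed from the 37526 names with TMM factors over all 8 libraries. Values after ± are standard errors of log2 fold changes. With 2 libraries against 2, the smallest two-sided permutation p is 0.333. Alternatives were other scalings, no low-count filter, DESeq2 1.42.0, adjusted p-values, a single fit of all libraries, a replicate block and each library left out, and, chosen after seeing the data, a crossed block, adjusted DESeq2 p-values and a term for the 3 libraries with over 25% of read pairs outside genes. The procedure was tested on simulated data.

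The members, their role groups, the pathway lists and the marker lists were chosen with earlier results of these data known. Values in every library are given for 8 genes whatever their results (ATM, ATR, CHEK1, CHEK2, PRKDC, BRCA1, BRCA2 and PARP1) and for up to 8 called members per comparison and direction with the smallest P. Positions and exon overlaps are from GENCODE v44 on hg38, in which 17 members have over 5% of exon length under exons on the opposite strand. For 4 members over 5% lies under exons of another gene on the same strand. Promoters are from RefSeq. Tables and figures used Python 3.11.15 with matplotlib 3.10.9, pandas 2.3.3 and numpy 2.4.6.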

Additional observations from a re-analysis of the deposited data

Results flagged for a closer look

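The difference between the ATRA responses of TP53BP1 in the 2 cell types, 0.68 on the log2 scale with the higher value in shKDM3B, had an unadjusted P of 0.033 in the edgeR interaction test (adjusted p = 0.99996). An unadjusted P under 0.05 was found for 4.49% of all genes, and in TP53BP1 it was lost under 6 of 14 alternatives, so the responses were not shown to differ. The 2 ATRA libraries of shKDM3B were the highest of all 8, and both had about 50% of read pairs outside genes, as did 1 of the 2 in shNC.

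Knockdown libraries of 3 members lay on one side of their controls without ATRA and on the other side with it (6.25% of 48, against 3.17% of the 11325 genes tested in both comparisons). UNG went from 169 and 175 CPM against 189 and 189 without ATRA to a mean of 109 CPM against 86.5 and 94.4 with it. FANCA went from 102 and 105.7 against 107 and 109 CPM to a mean of 106 CPM against 101 and 86.7. MSH6 went from 226 and 238 against 261 and 242 CPM to a mean of 193 CPM against 177 and 167. The differences between the responses had unadjusted P-values of 0.053, 0.28 and 0.16 in the edgeR interaction test, none under 0.05.

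Read pairs that aligned outside genes, which enter no comparison of genes, made up 50.02% of the unique alignments of shNC+ATRA replicate 2, and 51.4% and 51.0% of those of shKDM3B+ATRA replicates 1 and 2, against 8.83% and 9.28% in the shNC libraries. Groups of 2 libraries are too small to look for a single outlying sample.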

How the results depend on the processing

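With 2 libraries a group, every call of a single member except those of UNG was lost or reversed in at least 1 alternative. Calls with ATRA in shKDM3B were kept in 12 to 14 of 14 alternatives. Of the alternatives run for the called members, 191 left direction and call as they were, 51 ended the call and 1 reversed the direction, which was PRKDC with ATRA in shKDM3B (0.12, with the term for read pairs outside genes). That fit gave 4 members higher between the ATRA-treated groups, 2 lower with ATRA in shNC (median log2 -0.11) and 3 higher and 2 lower with ATRA in shKDM3B (median 0.048), the cause of which was not tested. Over all genes it called 807 higher and 830 lower between the ATRA-treated groups, against 505 and 929 in the fit of all 8 libraries without the term, and 1607 higher and 1377 lower with ATRA in shKDM3B, against 2752 and 2281. For shKDM3B against shNC, library size alone and upper-quartile scaling each gave 2 members lower, the latter with a median of -0.010, and adjusted p-values of edgeR or DESeq2 gave 0 in each direction. Between the ATRA-treated groups, edgeR adjusted p-values gave 0 higher. For ATRA in shNC, adjusted p-values of edgeR or DESeq2 gave 1 lower, and library size alone a median of -0.30, with that of all genes moving from 0.02 to -0.08 and their calls from 1866 higher and 1347 lower to 1617 and 1688. For ATRA in shKDM3B the median was -0.15 with library size alone, -0.17 with upper-quartile scaling, -0.14 without the low-count filter and -0.15 with all 8 libraries in one fit, beside -0.003, -0.02, 0.07 and 0.00 for all genes. The difference in ATRA response gave 2 members higher with DESeq2 size factors, library size alone, upper-quartile scaling, no low-count filter or DESeq2.

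Leaving out 1 library at a time (the lone library of its group being assumed to vary like the others), the members called by knockdown numbered 0 to 4 higher and 1 to 3 lower without ATRA (median -0.015 to 0.035) and 0 to 4 higher and 0 to 2 lower with it (median -0.031 to 0.18, the negative value without shNC+ATRA replicate 2). With ATRA in shNC they numbered 0 to 1 higher and 1 to 13 lower (median -0.31 to -0.10), in shKDM3B 1 to 3 higher and 7 to 9 lower (median -0.15 to -0.062), and in the difference in ATRA response 0 to 3 higher and 0 to 2 lower. Over all genes, the same omissions gave 465 to 934 higher and 426 to 661 lower for knockdown without ATRA, 1129 to 2444 higher and 748 to 2203 lower for ATRA in shNC, and 2878 to 3215 higher and 2138 to 2694 lower for ATRA in shKDM3B. Leaving out shNC+ATRA replicate 1 or replicate 2 or a shKDM3B+ATRA library moved the calls over all genes between the ATRA-treated groups between 41 and 3307 higher and between 97 and 1888 lower.

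The replicate numbers are not known to pair libraries. The deviations from the group means of libraries with the same number correlated by 0.44, 0.04, -0.11 and 0.22 across genes in the order knockdown without and with ATRA, ATRA in shNC and in shKDM3B. With a replicate block 3 members were lower with ATRA in shNC, and counts of called members in the other comparisons did not move, while the calls over all genes between the ATRA-treated groups went from 345 to 179 higher and from 624 to 346 lower. A crossed pairing there gave 6.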
